A study of Mus musculus with 3 samples.

Results

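The genes described here are 35 members of the programme that the SREBP transcription factors run in the liver. They come from a named list, out of 34274 genes with at least 1 count in a cell. The list holds 20 genes of cholesterol synthesis and its control, 10 of fatty acid and triglyceride synthesis, and 5 that supply NADPH. It was chosen with earlier results of these data known, so it is not independent of the values. SREBP proteins wait in the membrane of the endoplasmic reticulum, where INSIG proteins hold them while sterol is plentiful; when sterol runs low they are cut free, enter the nucleus and switch on their targets. SREBP-2, from Srebf2, mainly drives the sterol genes, and SREBP-1c, from Srebf1, mainly drives the fatty acid genes and answers to feeding and insulin. NADPH is the reducing agent that both pathways consume, and hepatocytes are the main site of both.

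The data are single-cell RNA counts from the livers of 3 wild-type mice, 1 for each group, so the groups carry no replicate. Every mouse had an iron-deficient diet with 2 to 6 ppm iron for 1 week. The IDD mouse got nothing more, the IDD+HTF mouse got 10 mg holo-transferrin (transferrin loaded with iron) into the tail vein, and the IDD+HID mouse was moved for 18 h onto chow with 2% carbonyl iron. Neither the age of the mice nor the time from injection to dissection is stated in the labels, and feeding before dissection is not described. The cell mixture was made from 5% hepatocyte and 95% non-parenchymal suspension, so shares of classes are not shares of the liver.

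Values given as a series of 3 are always for IDD first, then IDD+HTF, then IDD+HID. Of the barcodes, 1307, 3202 and 3538 passed as cells, with a median of 3626, 4449.5 and 8596 unique molecular identifiers (UMIs, counted RNA molecules) per cell; each pair of libraries shared 1 cell barcode. Hepatocyte-like cells, named from 10 markers such as Alb and Apoa1, numbered 244, 1000 and 257, with similar median depths of 2124.5, 2157.5 and 2230 UMIs; the 10 markers summed to 69034, 63492 and 86395 CPM, a scale defined below. Their make-up differed between libraries: mitochondrial, ribosomal RNA and repeat transcripts took 37.4%, 37.9% and 13.2% of their UMIs. Clusters 2 and 8 held 106 and 79 of the IDD cells and 468 and 336 of the IDD+HTF cells, but 32 and 9 of the IDD+HID cells, most of which (173) were in cluster 7. Sinusoidal endothelial-like cells numbered 323, 767 and 1124, Kupffer-like cells 84, 381 and 547, and stellate-like cells 137, 143 and 120. Levels are UMIs of a gene per 1000000 UMIs of its class and library (CPM), and brackets after a fold hold its 95% counting interval, which says nothing of the spread between mice. A gene counted as measured with 50 or more UMIs in the 2 libraries compared, and as higher or lower at 1.5-fold or more. Both iron-treated mice were set against the same IDD library, and in bulk class sums fewer molecules per cell and fewer cells using a gene give the same CPM.

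The stretches upstream of 5 members are shown because these 3 sterol genes, their regulator Insig1 and the fatty acid synthase gene recur in the results below and their sequences were at hand. RefSeq promoters on GRCm38.p6 were matched for 30 of the 35 members. Capitals mark the core of the classical sterol regulatory element, TCACNCCAC, where SREBP binds, and CCAAT, the box of its partner NF-Y, which may overlap. A box on the opposite strand reads ATTGG; each stretch is the 250 bases before the annotated start, written 5′ to 3′ along the gene.

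Hmgcs1 (chr13:119690101-119690350, plus strand): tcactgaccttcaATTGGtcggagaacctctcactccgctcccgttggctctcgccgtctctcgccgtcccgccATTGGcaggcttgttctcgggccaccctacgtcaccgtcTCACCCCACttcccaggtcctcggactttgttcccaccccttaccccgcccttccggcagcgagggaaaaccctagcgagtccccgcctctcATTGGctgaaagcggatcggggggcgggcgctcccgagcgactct
Idi1 (chr13:8885356-8885605, plus strand): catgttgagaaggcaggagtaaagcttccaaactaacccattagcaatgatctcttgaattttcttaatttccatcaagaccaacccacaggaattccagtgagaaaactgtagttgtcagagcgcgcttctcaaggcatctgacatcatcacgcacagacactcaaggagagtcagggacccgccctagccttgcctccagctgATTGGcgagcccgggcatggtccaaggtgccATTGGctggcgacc
Insig1 (chr5:28071162-28071411, plus strand): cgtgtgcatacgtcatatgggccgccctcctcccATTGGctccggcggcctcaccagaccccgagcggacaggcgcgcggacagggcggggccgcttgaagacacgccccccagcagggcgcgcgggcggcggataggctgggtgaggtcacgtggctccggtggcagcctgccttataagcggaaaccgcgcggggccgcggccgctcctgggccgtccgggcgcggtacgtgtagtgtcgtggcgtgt
Cyp51 (chr5:4104698-4104947, minus strand): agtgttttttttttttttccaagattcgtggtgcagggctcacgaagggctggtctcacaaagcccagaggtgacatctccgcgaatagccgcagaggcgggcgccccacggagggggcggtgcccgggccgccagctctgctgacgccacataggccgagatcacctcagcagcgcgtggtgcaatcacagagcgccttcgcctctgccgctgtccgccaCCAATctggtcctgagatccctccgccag
Fasn (chr11:120824548-120824797, minus strand): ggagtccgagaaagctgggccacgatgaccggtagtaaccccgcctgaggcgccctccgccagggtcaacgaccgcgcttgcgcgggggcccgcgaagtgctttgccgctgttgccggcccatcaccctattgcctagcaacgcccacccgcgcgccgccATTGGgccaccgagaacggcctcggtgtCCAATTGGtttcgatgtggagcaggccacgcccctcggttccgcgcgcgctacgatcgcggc

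Both strands were searched from 250 bases before to 50 after each annotated start. The NF-Y box was present at 1 or more starts of 25 of the 30 member genes (83.3%), in 15 of 16 matched sterol genes and 7 of 9 matched fatty acid genes, against 41.1% of all genes in the promoter table. The sterol element core was found in Hmgcs1 only among the members, 137 bases before the start, and in 1.44% of all genes. The E-box CACGTG was in 4 members (Hsd17b7, Sc5d, Dhcr7 and Insig1; 13.3%) against 8.09% of all genes. These are matches of letters in 1 window and no measure of binding.

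In hepatocyte-like cells nearly the whole programme was lower after holo-transferrin. Of 28 measured members 27 were lower in IDD+HTF than in IDD and 0 were higher, while 13.6% of all 3549 measured genes were lower, 17.8% were higher and the median gene stood at a log2 ratio of -0.02. All 9 measured fatty acid genes, all 4 measured NADPH genes and 14 of 15 measured sterol genes were lower, with median log2 ratios of -1.96, -1.62 and -1.24. Stard4, which carries cholesterol between membranes, was the exception, at 37.6 against 31.0 CPM, and its 1.21-fold difference (0.744 to 1.92) was within counting error. The summed sterol genes stood at 2027 CPM in IDD and 837 in IDD+HTF, and the summed fatty acid genes at 9310 and 4023. The 7 members not measured in this pair were Mvk, Mvd, Lss, Nsdhl, Srebf2, Pnpla3 and G6pdx.

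**Figure D1:**
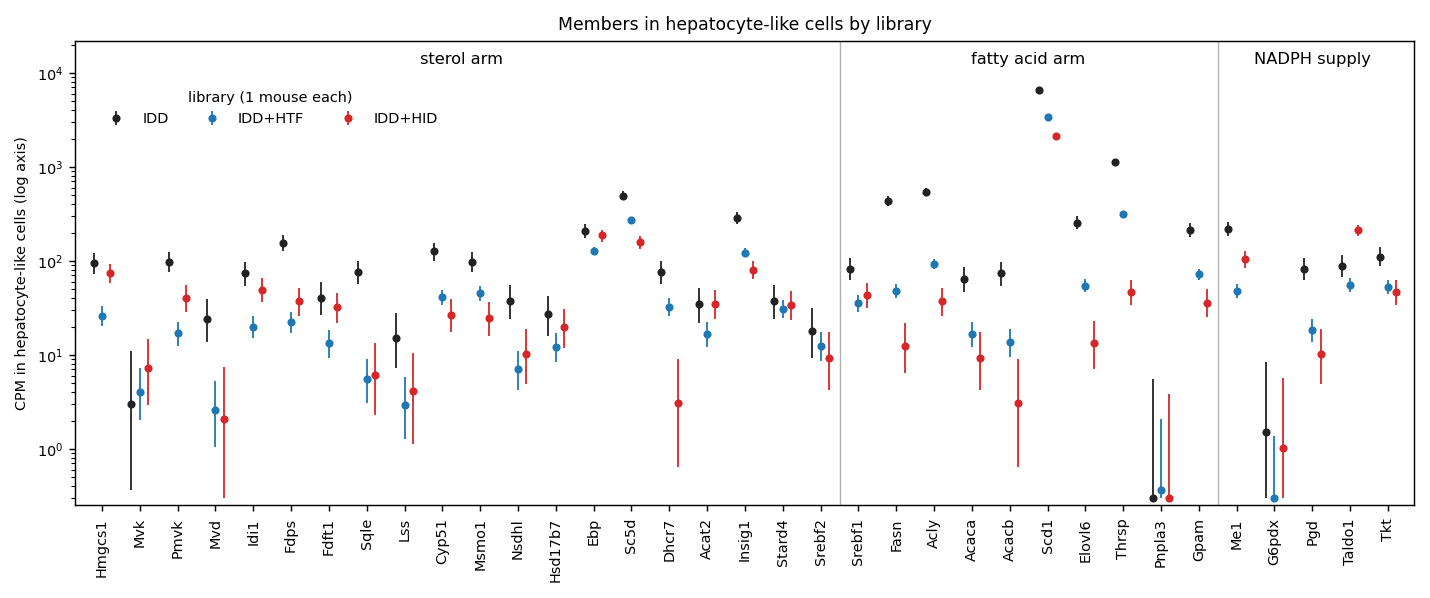
CPM of the 35 members in hepatocyte-like cells (log axis) in the IDD (black), IDD+HTF (blue) and IDD+HID (red) libraries, 1 mouse each; bars are exact Poisson 95% intervals and values of 0 are drawn at the lower edge. In most members black lies on top; Fasn stands at 434.5, 47.9 and 12.4 CPM, whereas Taldo1 is highest in red at 212 CPM.

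The entry to the sterol pathway was lower with holo-transferrin, while for 2 of its genes the high-iron value turned on the scaling. Hmgcs1, which makes the HMG-CoA from which all sterols start, stood at 94.7, 26.2 and 74.1 CPM. It was 3.62-fold lower (2.54 to 5.15) with holo-transferrin and 1.28-fold lower (0.897 to 1.82) on the high-iron diet; by CPM the first difference exceeded counting error and the second did not. Idi1, the isomerase that makes the reactive isoprene unit, had the same order at 73.7, 19.9 and 49.4 CPM, 3.70-fold lower (2.46 to 5.55) and 1.49-fold lower (0.981 to 2.27). With TMM scaling, which aligns the libraries on their typical gene, the log2 ratios of Hmgcs1 and Idi1 on the high-iron diet went from -0.35 to -1.21 and from -0.58 to -1.43, past 1.5-fold lower. In cells with at most 10% mitochondrial UMIs that of Hmgcs1 by CPM was 0.34. Fdps, which joins isoprene units into farnesyl diphosphate, stood at 154.8, 22.1 and 37.1 CPM, 7.00-fold lower (5.05 to 9.80) and 4.18-fold lower (2.83 to 6.29). Pmvk, a kinase of the mevalonate pathway, stood at 97.7, 16.9 and 40.1 CPM. In all 4 the IDD+HTF library had the lowest CPM.

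Further down the sterol pathway the order of the iron-treated libraries varied by gene. Sqle, the oxygenase that commits squalene to sterols, stood at 76.7, 5.53 and 6.18 CPM, 13.9-fold lower (7.68 to 26.6) and 12.4-fold lower (5.33 to 35.4). Dhcr7, the last reductase before cholesterol, stood at 76.7, 32.4 and 3.09 CPM, the last from 3 UMIs, and was 2.36-fold lower (1.64 to 3.38) and 24.8-fold lower (8.03 to 124). Insig1, which holds SREBP back and is itself an SREBP target, stood at 287, 123 and 80.3 CPM. Cyp51, the lanosterol demethylase, stood at 126.3, 40.9 and 26.8 CPM. For these 4 genes both iron-treated mice lay under the control, by more than counting error. The other measured sterol genes lay between 1.21-fold lower (Stard4) and 3.06-fold lower (Fdft1, the squalene synthase) with holo-transferrin. Msmo1, a sterol methyl oxidase, stood at 97.7, 45.0 and 24.7 CPM, and Sc5d, a sterol desaturase, at 496, 275 and 158. Ebp, a sterol isomerase, stood at 207.5, 128 and 186 CPM, 1.62-fold lower (1.32 to 1.98) with holo-transferrin and 1.11-fold lower (0.886 to 1.40) on the high-iron diet. Srebf2 itself had only 12, 34 and 9 UMIs, at 18.0, 12.5 and 9.26 CPM, and was not measured.

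Most fatty acid genes were lower with holo-transferrin and lower still on the high-iron diet. Scd1, the desaturase that makes oleate and the member with the most UMIs, stood at 6529, 3371 and 2131 CPM, 1.94-fold lower (1.87 to 2.01) and 3.06-fold lower (2.91 to 3.23). Fasn, the fatty acid synthase, stood at 434.5, 47.9 and 12.4 CPM, 9.07-fold lower (7.35 to 11.2) and 35.2-fold lower (19.8 to 68.9). Acly, which makes cytosolic acetyl-CoA from citrate, stood at 541, 93.2 and 37.1 CPM, 5.80-fold lower (4.93 to 6.84) and 14.6-fold lower (10.4 to 21.2). In each of these genes the libraries had the order IDD, IDD+HTF, IDD+HID, with intervals that did not overlap.

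The remaining fatty acid genes had mostly that order too. Elovl6, which extends palmitate, stood at 256, 54.5 and 13.4 CPM. Thrsp (Spot14), a lipogenic regulator, stood at 1117, 318 and 46.3 CPM, 3.51-fold lower (3.18 to 3.87) and 24.1-fold lower (17.8 to 33.4). Acacb, the mitochondrial acetyl-CoA carboxylase, stood at 73.7, 13.6 and 3.09 CPM, the last again from 3 UMIs, 5.40-fold lower (3.45 to 8.52) and 23.9-fold lower (7.70 to 120). Srebf1 did not have that order by CPM, at 82.7, 35.4 and 43.2, and was 2.34-fold lower (1.65 to 3.29) and 1.91-fold lower (1.26 to 2.93). Its ratio of 1.22 (0.829 to 1.77) in IDD+HID over IDD+HTF was within counting error. With TMM scaling all 8 fatty acid genes measured in that pair were lower in IDD+HID. Acaca, the cytosolic acetyl-CoA carboxylase, stood at 64.6, 16.6 and 9.26 CPM and Gpam, which starts triglyceride synthesis, at 212, 71.9 and 36.0. The amount of SREBP protein was not measured.

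For the fatty acid genes Thrsp and Fasn, shares of cells had the same order as CPM at equal depth. Shares for the other members are not given here. With each cell thinned to 1000 UMIs, a Thrsp UMI was present in 62.3%, 22.5% and 4.28% of hepatocyte-like cells (exact binomial 95% intervals 55.9 to 68.4, 19.9 to 25.2 and 2.16 to 7.53); unthinned shares were 78.3%, 39.3% and 12.8%. B-like cells, which should lack Thrsp, gave 0 of 90, 1.11% and 0.435% at that depth, with 0 of 90 allowing up to 3.33%, and had unthinned median depths of 4046.5, 3600.5 and 4557 UMIs. The Fasn share was 26.6%, 4.30% and 1.56% in hepatocyte-like cells. B-like cells give no background for Fasn: they held it at 23.4, 9.99 and 13.8 CPM, where the hepatocyte RNA in them, read from its markers, would give 7.08, 1.29 and 0.408.

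On the high-iron diet the 2 arms differed in how far they lay under the control. All 9 measured fatty acid genes were lower in IDD+HID than in IDD, with a median log2 ratio of -3.87, against 8 of 14 measured sterol genes with a median of -1.46. Over all members 20 of 27 were lower and 1 was higher, beside 12.2% lower and 64.3% higher among 2772 measured genes. The median gene stood at a log2 ratio of 0.95, so a member at 0 lay under the typical gene. With TMM scaling, which moves that centre, 26 of 27 were lower and 0 higher, whereas the shares of 12.2% and 64.3% are for CPM only. The 6 sterol genes within 1.5-fold by CPM were Hmgcs1, Idi1, Fdft1, Ebp, Acat2 and Stard4. Mitochondrial, ribosomal and repeat RNA took 13.2% of the UMIs here against 37.4% in IDD. With those transcripts left out of the totals 25 of 27 members were lower. The shares of all genes under these alternative scalings are not given here.

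**Figure D2:**
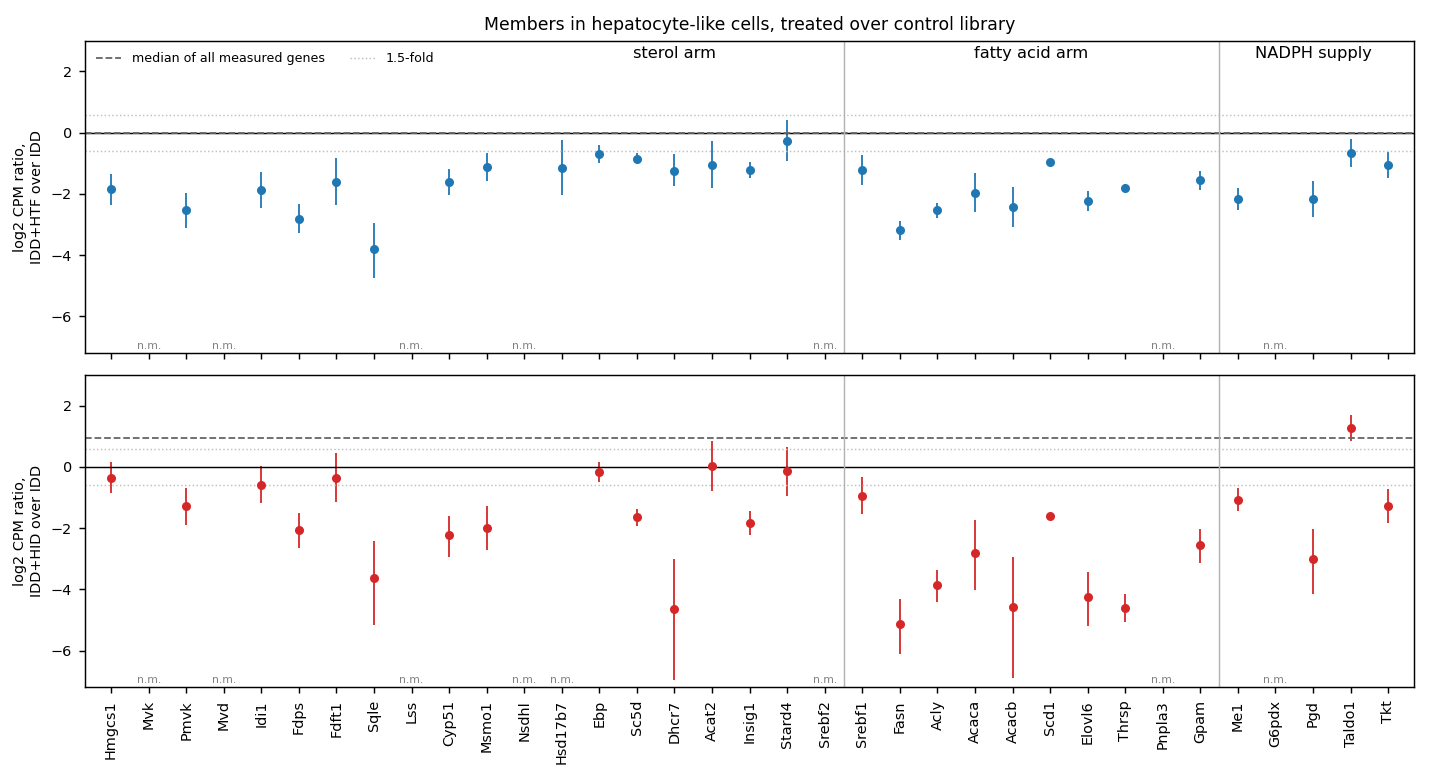
Log2 CPM ratio of each member in hepatocyte-like cells, IDD+HTF over IDD (top) and IDD+HID over IDD (bottom), with exact 95% counting intervals; the dashed line is the median of all measured genes, dotted lines mark 1.5-fold and n.m. marks genes not measured. In the top panel 27 of 28 points lie under the lower dotted line, and in the bottom panel the fatty acid genes reach lower (median -3.87) than the sterol genes (median -1.46).

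Set directly against each other, a comparison added after the values were seen, the iron-treated libraries differed in most fatty acid genes, which were lower in IDD+HID. In IDD+HID over IDD+HTF, 7 of 14 measured sterol genes were higher and 5 lower, whereas 0 of 8 measured fatty acid genes were higher and 7 lower; 61.4% of all measured genes were higher and 15.2% lower, with a median log2 ratio of 0.94. The 50% of sterol genes that were higher lay under that 61.4%. With TMM scaling, where the hepatocyte factors were 0.809 and 1.5, the median gene stood at 0.05, 1 of 14 sterol genes was higher and 6 lower, and 0 of 8 fatty acid genes were higher and 8 lower, beside 27.5% higher and 32% lower among all measured genes. The log2 ratios of Hmgcs1 and Idi1, 1.5 and 1.31 by CPM, were then 0.61 and 0.42. By CPM Thrsp was 6.87-fold lower (5.09 to 9.5) and Dhcr7 10.5-fold lower (3.48 to 51.9).

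The NADPH genes split. Me1, the malic enzyme, stood at 218, 48.3 and 104 CPM, 4.52-fold lower (3.54 to 5.76) and 2.10-fold lower (1.62 to 2.73). Pgd, an oxidative pentose phosphate enzyme, stood at 82.7, 18.4 and 10.3 CPM, 4.49-fold lower (3.0 to 6.72) and 8.03-fold lower (4.06 to 17.7). Taldo1, the transaldolase of the non-oxidative branch, was the 1 member higher on the high-iron diet, at 88.7, 55.7 and 212 CPM, 2.39-fold higher (1.78 to 3.25) in IDD+HID. Its log2 ratio of 1.26 lay close to the 0.95 of the median gene, and it was not called with TMM scaling or in cluster 7 alone. G6pdx, the entry enzyme of the oxidative branch, had 1, 0 and 1 UMIs in hepatocyte-like cells.

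Since the libraries filled the clusters unequally, the members were read within clusters, which had been formed without any member gene. In cluster 7, present in all 3 libraries with 58, 196 and 173 cells, 9 of 11 measured members were lower and 0 higher in IDD+HTF (8.21% of all measured genes lower, 20.6% higher). In IDD+HID 11 of 13 were lower and 0 higher (8.42% lower, 39.3% higher). Thrsp stood at 1804, 834 and 53.2 CPM in that cluster and Fasn at 221, 34.2 and 13.3. Hmgcs1 was at 70.2 CPM in IDD and 83.8 in IDD+HID, 1.19-fold higher (0.650 to 2.36), with no call. Srebf1, Gpam and Tkt, lower in IDD+HID over the whole class, had too few UMIs in cluster 7 to count as measured, at 32.4, 21.6 and 48.6 CPM in IDD against 38.6, 23.9 and 50.6 in IDD+HID. In clusters 2 and 8, 13 of 13 and 19 of 19 measured members were lower in IDD+HTF, beside 13.2% and 19% of all measured genes. The holo-transferrin difference was thus present in each of the 3 clusters that could be compared.

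**Figure D3:**
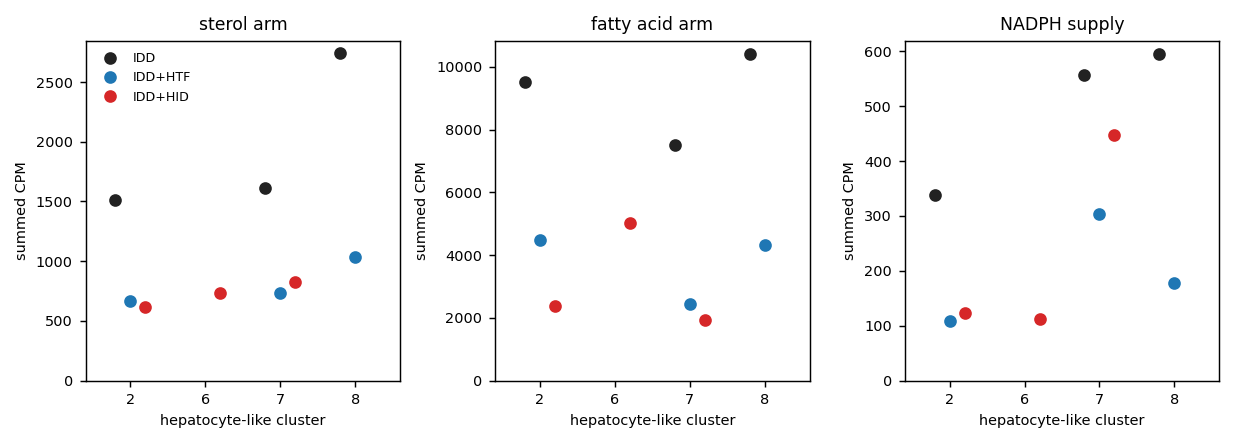
Summed CPM of the sterol, fatty acid and NADPH members in each hepatocyte-like cluster, by library (linear axes from 0); combinations with too few cells have no point. In clusters 2, 7 and 8 the IDD point lies highest for each arm; in cluster 7 the fatty acid arm stands at 7512, 2424 and 1930 CPM.

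RNA outside cells showed the fatty acid pattern as well. In droplets with 100 or fewer UMIs, Fasn stood at 108, 35.3 and 11.4 CPM, Thrsp at 207, 99.8 and 33.9 and Scd1 at 2245, 1585 and 744. In the same droplets Alb, the hepatocyte albumin transcript, had the opposite order at 4675, 7965 and 11366 CPM. In IDD+HTF over IDD, 14 of 27 measured members were lower and 1 higher, beside 0.733% of all measured genes lower and 70.9% higher. In IDD+HID 18 of 27 were lower and 3 higher, beside 2.60% lower and 74.2% higher. All 9 measured fatty acid genes were lower on the high-iron diet and 7 of 9 with holo-transferrin. These counts do not depend on how cells were clustered, but they do not tell which cells the RNA came from.

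Other genes of the pathway, from 4 lists of 57 genes in all, differed less evenly in hepatocyte-like cells. The shares among all measured genes are those given above, 13.6% lower and 17.8% higher with holo-transferrin, then 12.2% lower and 64.3% higher on the high-iron diet, where the median log2 ratio was 0.95. In no list was the share higher on the high-iron diet above that 64.3%. In the list of fatty acid and glyceride genes 9 of 17 measured were lower and 0 higher with holo-transferrin, and 5 of 13 lower and 2 higher on the high-iron diet. Acss2, which makes acetyl-CoA from acetate, stood at 121.8, 23.6 and 19.6 CPM, and Elovl5, which extends polyunsaturated fatty acids, at 631, 272 and 165 CPM. Mid1ip1, a partner of acetyl-CoA carboxylase, was 3.26-fold lower (1.91 to 5.52) with holo-transferrin. Fabp1, the fatty acid binding protein of hepatocytes, stood at 8613, 5789 and 33839 CPM, and the electron carrier Fdx1 was 3.12-fold higher (2.43 to 4.03) on the high-iron diet. Tmem97, a sterol-regulated membrane protein from the list of SREBP processing and LXR, was 3.0-fold lower (1.69 to 5.49) on the high-iron diet. Among genes of SREBP processing and sterol sensing 1 of 10 measured was lower and 2 higher in IDD+HTF, and 2 of 6 lower and 0 higher in IDD+HID; Npc1, which exports cholesterol from lysosomes, was 2.89-fold higher (1.67 to 5.40) in IDD+HTF. Of other sterol and isoprenoid genes 2 of 7 were lower and 1, the oxysterol hydroxylase Cyp7b1, higher at 1.72-fold (1.44 to 2.07), and 1 of 7 lower and 4 higher. Of other NADPH genes 1 of 3 was lower and 0 higher, and 1 of 3 lower and 1 higher.

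Among the endothelial-like cells of the sinusoids, the capillaries of the liver, a smaller set of members was lower. With holo-transferrin 7 of 23 measured members were lower and 0 higher, beside 10.2% of all 10360 measured genes lower and 10.1% higher. On the high-iron diet 10 of 27 were lower and 2 higher, beside 19.6% lower and 14.5% higher. Median depth differed between the libraries at 3395, 6165 and 9811 UMIs per cell, and mitochondrial, ribosomal and repeat RNA took 16.4%, 10.3% and 7.89%; the part of either in the differences was not tested. With TMM scaling the count for holo-transferrin was 4 lower and 2 higher, and that for the high-iron diet 8 lower and 4 higher. The shares of all genes given above are for CPM, and those with TMM are not given here. Within cluster 1, 3 of 13 measured members were lower and 1 higher with holo-transferrin (7.02% and 13.3% of all measured genes), and 7 of 15 lower and 2 higher on the high-iron diet (12.1% and 19.5%). Within cluster 10 these were 3 of 11 and 1 (8.24% and 16.2%), then 6 of 19 and 2 (16.7% and 21.5%).

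**Figure D4:**
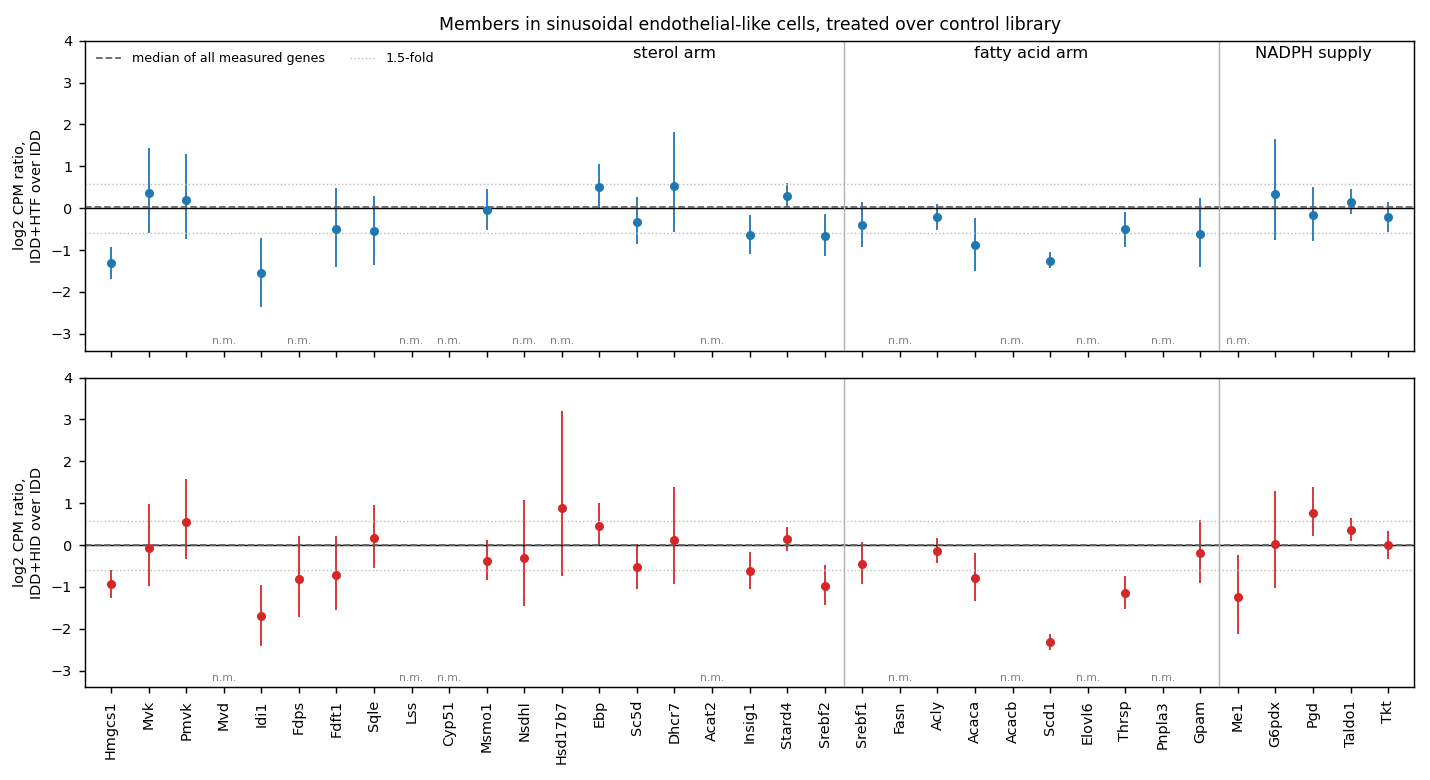
Log2 CPM ratio of each member in sinusoidal endothelial-like cells, IDD+HTF over IDD (top) and IDD+HID over IDD (bottom), with exact 95% counting intervals, the median of all measured genes (dashed) and 1.5-fold (dotted). Hmgcs1, Idi1, Insig1, Srebf2, Acaca and Scd1 lie under the lower dotted line in both panels, and Thrsp and Me1 lie under it in the bottom panel.

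Part of the sterol arm was lower in these cells. Hmgcs1 stood at 76.4, 30.7 and 40.2 CPM, 2.49-fold lower (1.91 to 3.23) and 1.90-fold lower (1.5 to 2.38). Idi1 stood at 18.9, 6.45 and 5.82 CPM, 2.93-fold lower (1.65 to 5.12) and 3.25-fold lower (1.93 to 5.31). Srebf2 stood at 39.5, 25.0 and 20.2 CPM, 1.58-fold lower (1.11 to 2.21) and 1.96-fold lower (1.40 to 2.68). Insig1 stood at 43.6, 28.1 and 28.4 CPM. In these 4 genes both iron-treated libraries lay under the control. With TMM scaling Insig1 in both pairs (log2 ratios of -0.54 and -0.47) and Srebf2 with holo-transferrin (-0.56) were within 1.5-fold.

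Not all sterol genes of the endothelium shared this. Sqle stood at 14.8, 10.1 and 16.5 CPM, within counting error of the control, and Stard4 at 91.2, 112 and 100.5. Among fatty acid genes Scd1 stood at 288, 121 and 57.7 CPM, 2.38-fold lower (2.08 to 2.71) and 5.00-fold lower (4.38 to 5.70). Thrsp stood at 54.2, 38.1 and 24.53 CPM and Acaca at 26.3, 14.2 and 15.3. Hepatocyte markers summed to 1178, 1441 and 1662 CPM in the class. With a matching share of hepatocyte RNA subtracted, the log2 ratios of Scd1 went from -1.25 to -1.99 and from -2.32 to -3.4, while that of Thrsp in IDD+HID went from -1.14 to -0.57 and was no longer 1.5-fold. Acly, at 87.9, 75.9 and 80.3 CPM, and Srebf1, at 32.9, 24.9 and 24.1, were within 1.5-fold. Me1 had 13 UMIs in IDD and was 2.35-fold lower (1.17 to 4.39) in IDD+HID, and Fasn and Elovl6 were under the limit of 50 UMIs in both pairs. Pgd was 1.70-fold higher (1.15 to 2.62) in IDD+HID.

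The other pathway genes of the same cells held 2 that limit sterol uptake or export sterol and had higher levels in both iron-treated libraries. Mylip, whose product degrades the receptors that take up lipoprotein cholesterol, stood at 404, 888 and 775 CPM. Abca1, which exports cholesterol, stood at 40.3, 110 and 93.1 CPM, 2.74-fold higher (2.04 to 3.74) and 2.31-fold higher (1.73 to 3.14). Both are targets of the LXR sterol receptors. The LXR target Abcg1 was 2.02-fold higher (1.72 to 2.38) in IDD+HID; it and Mylip in IDD+HID were chosen after their values were seen. Mlx, a partner of the lipogenic factor ChREBP, was 3.35-fold higher (1.48 to 9.37) and 3.67-fold higher (1.66 to 10.1) from 6 UMIs in IDD. Of 14 measured genes in the list of SREBP processing and LXR, 3 were higher and 1 lower with holo-transferrin, and of 15 measured 5 were higher and 1 lower on the high-iron diet. Among all measured genes 10.1% were higher and 10.2% lower in the first pair, and 14.5% and 19.6% in the second. The lower one was Mbtps2, a protease that frees SREBP, at 83.8, 46.1 and 44.4 CPM. Of the other lists, sterol and isoprenoid genes had 2 of 9 higher and 0 lower, then 1 of 11 higher and 1, the sterol reductase Tm7sf2, lower; fatty acid and glyceride genes had 2 of 15 higher and 1 lower, then 1 of 16, the acyl-CoA synthetase Acsl5, higher and 2 lower; NADPH genes had 1 of 6 higher and 0 lower, then 1 of 7 higher and 1, the mitochondrial transhydrogenase Nnt, lower.

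In Kupffer-like cells, the resident macrophages, few members differed. With holo-transferrin 3 of 21 measured members were lower and 2 higher (5.69% and 15.2% of all genes), and on the high-iron diet 3 of 26 were lower and 2 higher (7.5% and 18.8%). Insig1 stood at 99.6, 65.4 and 85.3 CPM, 1.52-fold lower (1.21 to 1.90) with holo-transferrin. Scd1 stood at 195, 160 and 103 CPM, 1.89-fold lower (1.61 to 2.21) on the high-iron diet. Sc5d was 1.93-fold higher (1.01 to 4.12) in IDD+HTF from 10 UMIs in IDD. No other called member had an interval that left out 1. Hmgcs1 stood at 17.7, 14.0 and 23.2 CPM in these cells. Among other genes Mylip was 2.25-fold higher (1.87 to 2.73) and 2.10-fold higher (1.75 to 2.54), and Fabp5, a fatty acid binding protein, 3.08-fold higher (1.89 to 5.35) and 2.96-fold higher (1.82 to 5.12). The sinusoidal endothelial markers summed to 286, 922 and 1407 CPM in this class, and endothelial-like cells had Mylip at 404, 888 and 775 CPM and Fabp5 at 403, 621 and 528; the part of endothelial RNA in these differences was not tested. Fads1, a desaturase of polyunsaturated fatty acids, was 1.66-fold higher (1.06 to 2.74) with holo-transferrin. On the high-iron diet Scd2 and Elovl5 were 1.77-fold and 1.61-fold lower.

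Stellate-like cells, the vitamin A storing cells of the sinusoid wall, had lower levels of most measured fatty acid genes. With holo-transferrin 5 of 14 measured members were lower and 4 higher (11% and 23.7% of all genes), and on the high-iron diet 6 of 16 were lower and 4 higher (16.5% and 30.5%). Of 5 measured fatty acid genes 4 were lower in each pair. Scd1 stood at 225, 70.6 and 47.4 CPM, 3.18-fold lower (2.45 to 4.15) and 4.74-fold lower (3.58 to 6.32). Acaca stood at 59.2, 19.7 and 27.7 CPM, and Srebf1 at 79.9, 41.5 and 36.3. In these 3 genes both iron-treated libraries lay under the control by more than counting error. Gpam stood at 39.9, 21.8 and 20.3 CPM, and Me1 was 1.76-fold lower (1.09 to 2.82) on the high-iron diet. Among other genes Fabp5 stood at 68.0, 230.8 and 227.7 CPM, Mylip was 2.58-fold higher (2.13 to 3.14) with holo-transferrin and Abca1 3.06-fold higher (1.96 to 5.03) on the high-iron diet. Nr1h3 with holo-transferrin and Me2 on the high-iron diet were higher from 2 and 3 UMIs in IDD, at ratios of 13.5 (3.57 to 115) and 10.8 (3.57 to 53.6). Mbtps2 was 1.76-fold and 2.35-fold lower, Elovl5 1.57-fold and 2.24-fold lower, and Agpat2, of triglyceride synthesis, 1.76-fold lower on the high-iron diet.

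Endothelial and Kupffer markers were also higher in that class, the Kupffer markers at 237, 1789 and 1576 CPM. Stard4 stood at 22.2, 54.6 and 57.9 CPM and Taldo1 at 48.8, 124 and 119, while the 8 sinusoidal endothelial markers summed to 2506, 8880 and 10246 CPM in the class. With the endothelial share subtracted, an alternative added after the values were seen, the Stard4 log2 ratios went from 1.30 to -0.13 and from 1.38 to 0.71, and those of Taldo1 from 1.34 to 1.19 and from 1.28 to 0.89. Taldo1 thus stayed past 1.5-fold in both pairs and Stard4 on the high-iron diet only. The other higher members, Ebp and Insig1 with holo-transferrin and Hmgcs1 and Insig1 on the high-iron diet, had intervals that included 1. The part of endothelial RNA in the Fabp5, Mylip and Abca1 values was not tested. Kupffer RNA was not subtracted, and its part in the Taldo1, Nr1h3 and Me2 values was not tested. The same subtraction left Scd1, Acaca and Srebf1 lower in both pairs, with Srebf1 at -1.27 and -1.53.

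Across classes, most members were highest in hepatocyte-like cells in the control mouse, and fewer were in the other 2. Among 7 classes, hepatocyte-like cells had the highest CPM for 27, 17 and 14 members. The matching share of all genes was not computed, so these counts do not set the members apart from other genes. Srebf2 was highest in B-like cells in each library, at 120, 143 and 95.0 CPM. Class sums per mouse were compared with edgeR's quasi-likelihood test over the 3 mice with mouse as a block, so the spread includes the treatments; 33 of the 35 members were tested. Against sinusoidal endothelial-like cells 29 were higher in hepatocytes and 1 lower at a Benjamini-Hochberg adjusted p under 0.05 (26.7% and 38.2% of all 13744 genes), against Kupffer-like cells 28 higher and 2 lower (24.1% and 31.9%), and against stellate-like cells 30 higher and 1 lower (24.9% and 40.2%). The scaling sets part of this. TMM moved the log2 differences by a median of 1.67, 1.45 and 1.69 over those from library totals, and with totals 21, 21 and 22 members were higher and 4, 5 and 3 lower. The median gene then stood at -2.24, -1.91 and -2.43 on the log2 scale, lower in hepatocytes. By CPM alone 20, 19 and 20 of the 35 were above the other class in each of the 3 mice, and the share of all genes was not computed.

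The sterol genes with the largest excess over endothelial cells were Cyp51, 5.96 on the log2 scale (SE 0.37, edgeR adjusted p = 4.1e-11), Sc5d at 5.27, Acat2 at 4.76, Fdps at 4.73 and Insig1 at 3.92. Among fatty acid genes they were Scd1 at 6.51 (SE 0.44, edgeR adjusted p = 1.6e-10), Fasn at 6.16, Elovl6 at 5.66, Thrsp at 4.69 and Gpam at 4.52. Against Kupffer-like cells Thrsp (7.70), Acacb (7.69) and Scd1 (5.99) led the fatty acid genes and Sc5d (5.61) the sterol genes, and against stellate-like cells Scd1 (6.97) and Sc5d (5.45) did. Each gene had the higher CPM in hepatocyte-like cells in 3 of 3 mice in the comparison it is named for. The sterol carrier Stard4, Srebf2 and Mvk were not called against endothelial cells. They stood at 0.10 (edgeR adjusted p = 0.77), 0.71 (edgeR adjusted p = 0.053) and 0.63 (edgeR adjusted p = 0.18). Each had a lower CPM in hepatocyte-like than in endothelial-like cells in every mouse.

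The pentose phosphate genes were highest in Kupffer-like cells in each library. There Taldo1 stood at 519, 442 and 458 CPM, Tkt, the transketolase, at 310, 237 and 223, Pgd at 184, 138 and 151 and G6pdx at 74.9, 67.7 and 77.7. All 4 were higher in CPM there than in hepatocyte-like cells in 3 of 3 mice. G6pdx and Taldo1 passed the test, at -5.75 (edgeR adjusted p = 4.2e-08) and -0.82 (edgeR adjusted p = 0.038). Pgd and Tkt did not, at -0.85 (edgeR adjusted p = 0.12) and -0.47 (edgeR adjusted p = 0.23). The median gene was also lower in hepatocytes, at -0.45 in this test and -1.91 with library totals. Of the 4 genes, only G6pdx lay far under that median in the test. The Taldo1 call was lost without the mouse block (edgeR adjusted p = 0.11), without the IDD mouse (edgeR adjusted p = 0.061) and without the IDD+HTF mouse (edgeR adjusted p = 0.27), while that of G6pdx held in each of these fits. Me1, which makes NADPH by another route, was 7.10 higher on the log2 scale in hepatocytes (edgeR adjusted p = 1.6e-12).

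**Figure D5:**
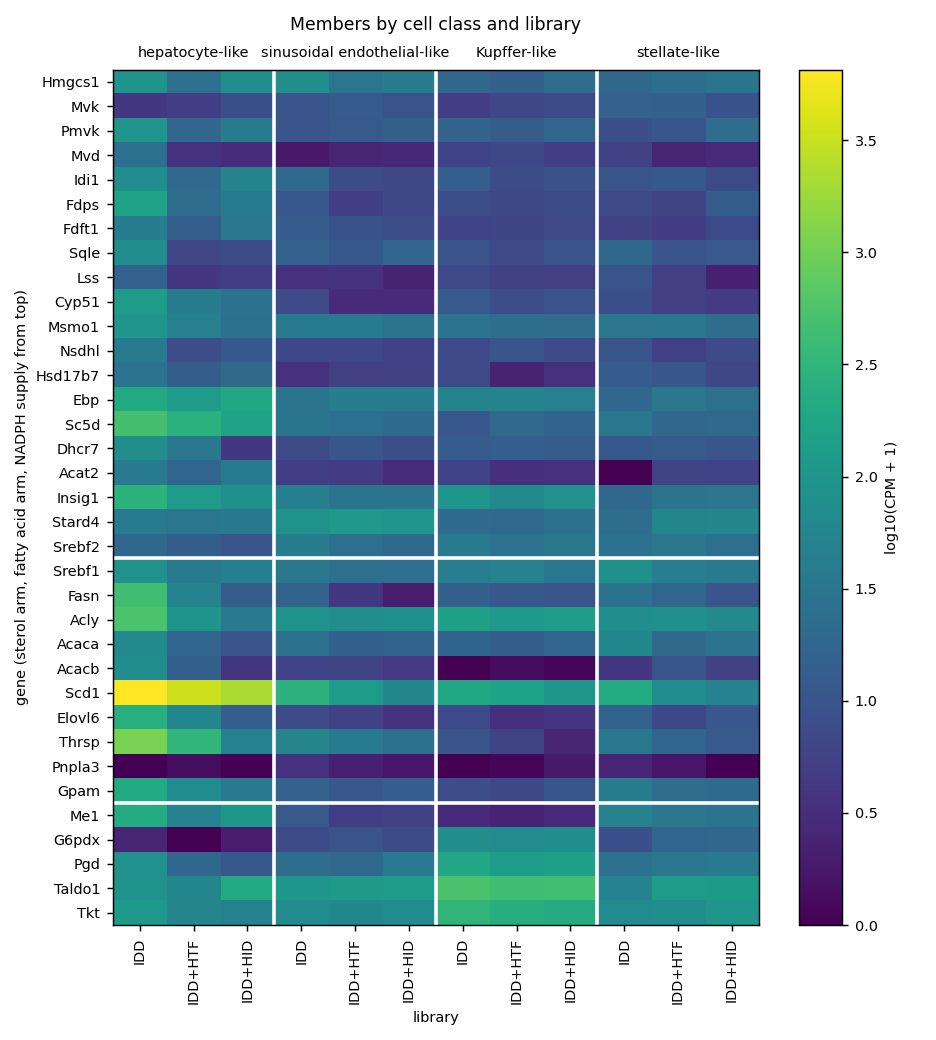
CPM of the 35 members, as log10(CPM + 1), in hepatocyte-like, sinusoidal endothelial-like, Kupffer-like and stellate-like cells of the 3 libraries; white lines part the classes and the sterol, fatty acid and NADPH genes. Scd1 is brightest in hepatocyte-like cells, from 6529 CPM in IDD, and Taldo1 and Tkt are brighter in Kupffer-like cells, at 519 and 310 CPM in IDD.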

How the data were processed

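Per the labels' protocols, droplet libraries (10x Chromium, a 3′ kit) were made from dissociated liver. The authors deposited raw counts of UMIs per barcode and gene, without normalization. Per the submitters' processing notes, Seurat 4 and the build GRCm38 were used; aligner and counter: not given in the sources used here. Among 55421 gene identifiers, 54673 matched GENCODE M21 with their version.

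The members and lists were chosen with earlier results of these data known. Cells had at least 1000 UMIs, 300 genes and at most 20% mitochondrial UMIs. Scrublet (scanpy 1.11.5, expected share 6%) called 2.02%, 0.187% and 0.197% of IDD, IDD+HTF and IDD+HID; under 0.5% it has not worked, so doublets remain. Leiden clustering (igraph 0.11.9; 2000 variable genes without members, other list genes or mitochondrial genes, 30 components, 15 neighbours, resolution 1) gave 27 clusters, named from marker lists by a mean log2 of at least 1 (pseudocount 20 CPM) and a lead of 0.5; 5 stayed unnamed. Classes end in "-like" since they rest on markers.

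CPM were computed from summed counts, with exact Poisson and conditional binomial 95% intervals, covering counting error only. No test between libraries was possible with 1 mouse per group. Classes were tested with edgeR 4.0.16 (R 4.3.3), TMM and filterByExpr, and DESeq2 1.42.0 as an alternative; the edgeR step was tested on simulated data. Named were, per class and pair, up to 8 members with the largest fold whose interval left out 1, 11 core members in hepatocytes and endothelial cells, up to 5 members per arm between classes, and up to 3 other genes per direction; further values were chosen after they were seen. A gene that the rule names is not reported here.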

Additional observations from a re-analysis of the deposited data

How the results depend on the processing

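No paired analysis was possible because each group had 1 mouse, so the libraries share only the number 1; the test between classes had the mouse as a block, and with no replicate block 28, 27 and 29 members were higher in hepatocytes than in sinusoidal endothelial, Kupffer and stellate cells, and 1, 1 and 1 lower. The cause of the changes below was not tested, except that limits on UMIs, single clusters and left-out mice work on fewer genes or cells, and a 2-fold rule is stricter. The counts in this section show only how the calls moved with the setting. Beyond the shares of all genes given above, the matching shares are not given here. These counts therefore do not set the members apart from other genes. In hepatocytes with holo-transferrin, 12 of 12 members were lower at 200 UMIs or more in the pair, 13 in cluster 2 and 9 in cluster 7. With the high-iron diet 7 of 9 were lower at 200 UMIs and 11 in cluster 7, and 0 were higher with TMM, with median-of-ratios scaling or in cluster 7.

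In sinusoidal endothelial cells with holo-transferrin, 4 members were lower with TMM and with median-of-ratios scaling, and 3 at 200 UMIs, in cluster 1, in cluster 10 and under the 2-fold rule. There 2 were higher with TMM, with median-of-ratios scaling, at 2000 UMIs per cell and with hepatocyte RNA subtracted, and 1 at 20 UMIs in the pair, at most 10% mitochondrial UMIs, without the deepest 5% of cells, in cluster 1 and in cluster 10. On the high-iron diet 6 were lower at 200 UMIs and in cluster 10 and 4 under the 2-fold rule, while 4 were higher with TMM, with median-of-ratios scaling and at 2000 UMIs per cell, 1 at 200 UMIs and 0 under the 2-fold rule.

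In Kupffer cells with holo-transferrin, 5 were lower at 20 UMIs in the pair and 1 at 200 UMIs, without the deepest 5% of cells, with equal weight per cell, in cluster 3 and under the 2-fold rule; 0 were higher at 200 UMIs and under the 2-fold rule, and 1 without the deepest cells and in cluster 3. In the IDD+HID library 7 were lower at 20 UMIs, 1 at 200 UMIs, without the deepest cells, with equal weight and in cluster 3, and 0 under the 2-fold rule; 0 were higher at 200 UMIs, without the deepest cells and under the 2-fold rule, and 1 in cluster 3. In stellate cells with holo-transferrin, 9 were lower at 20 UMIs, 1 at 200 UMIs, 3 at most 10% mitochondrial UMIs and with equal weight, and 2 under the 2-fold rule; 1 was higher at 200 UMIs, and 2 without the deepest cells, under the 2-fold rule and with endothelial RNA subtracted. For the high-iron diet 11 were lower at 20 UMIs, 1 at 200 UMIs and 3 under the 2-fold rule; 7 were higher at 20 UMIs, 1 at 200 UMIs and 2 under the 2-fold rule.

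Between classes, 4, 5 and 3 members were lower in hepatocytes than in endothelial, Kupffer and stellate cells with library totals in place of TMM. Leaving out 1 mouse each gave 0 to 1, 1 to 2 and 0 to 1 lower members, and 27 to 30, 24 to 27 and 27 to 31 higher ones; without the IDD+HTF mouse these were 0, 1 and 0 lower, and without the IDD+HID mouse 0 were lower than in endothelial cells. With library totals the log2 differences turned for Mvk (-1.08), Stard4 (-1.59), Srebf2 (-1.05) and Taldo1 (-0.029) against endothelial cells, Mvk (-0.29) and Srebf2 (-1.31) against Kupffer cells, and Mvk (-1.38), Stard4 (-0.43), Srebf2 (-1.11), Acaca (-0.38), Pgd (-0.043) and Tkt (-0.29) against stellate cells. Leaving out 1 mouse each, Stard4 against endothelial cells ranged from -0.027 (without the IDD mouse) to 0.35 and Srebf2 against Kupffer cells from -0.21 (without the IDD+HTF mouse) to 0.65; with no filter the latter was -0.048. Between libraries the log2 ratios in hepatocytes on the high-iron diet turned in cluster 7 for Srebf2 (0.79), Srebf1 (0.25), Gpam (0.15) and Tkt (0.057), and for Srebf2 with equal weight per cell (0.14). In IDD+HID over IDD+HTF, with TMM scaling 1 sterol gene was higher. Elovl6 in endothelial cells on the high-iron diet turned to 0.10 with hepatocyte RNA subtracted, and Stard4 in stellate cells with holo-transferrin to -0.13 with endothelial RNA subtracted.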
